A study of Mus musculus with 2 samples.

Results

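The transient receptor potential canonical (TRPC) channel genes Trpc1, Trpc2, Trpc4, Trpc5, Trpc6 and Trpc7 are described here, 6 of the 31252 gene rows measured in the ventral midbrain. They were selected on gene name and on the measured counts: the family was picked because Trpc6 was among the largest differences between the 2 libraries. The fold changes of the 6 genes are therefore given as a description. Ventral midbrain tissue of 2-month-old mice on an incipient congenic C57BL/6 background gave 1 Ctrl-labelled library and 1 labelled OE. Ctrl mice carried Slc6a3-Cre, in which the dopamine transporter locus drives Cre recombinase in dopaminergic (DA) neurons, and OE mice carried Slc6a3-Cre with the Cre-dependent CAG-S-COUP-TFII allele. In the study's methods, the Ctrl and OE littermates came from dams that were homozygous for floxed Tfam and for a ROSA26-tdTomato reporter. The labels of the 2 sequenced libraries do not mention those alleles, and the number of mice per library is not given in the sources used here. RNA came from the whole tissue piece and not from sorted cells, although the labels name DA neurons as the cell type. The oligodendrocyte gene Mbp stood at 1583 CPM (counts scaled to a common library total) per kilobase of transcript in the Ctrl-labelled library, against 75.5 for Th.

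Nr2f2, which encodes COUP-TFII, bears on the labels but cannot settle them. The added allele acts in DA neurons, and the paper measured the raised mRNA in isolated DA neurons. RNA of the whole tissue also holds any Nr2f2 RNA of other cells. Nr2f2 had 637 counts in the Ctrl-labelled library and 377 in the OE-labelled library, a log2 fold change of -1.07 (95% counting interval -1.26 to -0.88). The overexpressed gene was thus lower in the OE-labelled library, so every direction below is stated for the library as labelled. All 10 DA markers described below were also higher in the OE-labelled library, Aldh1a1 among them (log2 fold change 0.83). The aldehyde dehydrogenase gene Aldh1a7 was higher as well (1.72), and Aldh1l1 had -0.096 with an interval that held 0. The paper reports that several aldehyde dehydrogenase genes were repressed in OE mice, and that older OE mice had fewer DA neurons. The DA markers and the higher dehydrogenase genes thus went the other way. Whether the labels of the 2 libraries were exchanged, which would turn the sign of every fold change, was not tested. Log2 fold changes throughout are the OE-labelled library over the Ctrl-labelled library, after scaling by the trimmed mean of M values (TMM). With 1 library per group there is no replicate check, and no p-value is given. Counting intervals compare the 2 libraries and not the genotypes.

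TRPC channels are cation channels of the plasma membrane that open downstream of receptors coupled to phospholipase C and let in sodium and calcium. Each channel is built from 4 subunits, which may be of the same or of different TRPC proteins. Trpc1, Trpc4 and Trpc5 encode subunits that combine with each other. Trpc6 and Trpc7 encode close relatives that open in response to diacylglycerol, one of the products of phospholipase C. Trpc2 serves pheromone sensing in the vomeronasal organ of the mouse. In midbrain DA neurons, TRPC channels are known as carriers of slow depolarizing currents that follow the activation of metabotropic receptors.

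The family is recognised by the TRP box, a stretch of 6 residues just after the last membrane-spanning segment that is conserved in its members. The 60 bases around the codons of the TRP box are shown because they let the 6 genes be compared at the level that sequencing reads, with the TRP box codons in capitals. They were read 5′ to 3′ from GENCODE M21 transcripts (GRCm38), and in each gene they span the junction of 2 exons.
Trpc1: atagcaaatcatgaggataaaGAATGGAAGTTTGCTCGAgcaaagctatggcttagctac
Trpc4: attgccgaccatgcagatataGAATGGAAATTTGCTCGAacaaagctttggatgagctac
Trpc5: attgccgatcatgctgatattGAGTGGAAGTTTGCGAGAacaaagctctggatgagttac
Trpc2: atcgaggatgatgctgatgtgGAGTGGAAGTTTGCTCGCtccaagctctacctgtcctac
Trpc6: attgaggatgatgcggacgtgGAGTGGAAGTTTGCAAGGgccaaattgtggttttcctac
Trpc7: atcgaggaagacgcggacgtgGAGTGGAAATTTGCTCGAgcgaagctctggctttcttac
In the genome, the Trpc6 stretch lies on the plus strand in exons 8 and 9 of 13, within chr9:8655367-8656595, and the Trpc7 stretch on the minus strand in exons 8 and 9 of 12, within chr13:56783791-56789607. Both are coding sequence, and each interval includes the intron in between. Over these 60 bases, Trpc4 and Trpc5 shared 85% of positions, Trpc6 and Trpc7 78.3%, and Trpc4 and Trpc6 63.3%. Trpc2 shared 80% with Trpc7 and 76.7% with Trpc6. Over all annotated transcripts, the longest exact stretch that Trpc6 shared with any of the other 5 genes was 29 bases, with Trpc5. The longest between any pair of the 6 genes was 37 bases, between Trpc5 and Trpc7. Both are shorter than the 50-base reads. The counts of Trpc1, Trpc4, Trpc5, Trpc6 and Trpc7 were whole numbers, and Trpc2 had fractional counts. Trpc2 shared 2804 bases with Xntrpc, an overlapping gene on the same strand, so the split of reads between these 2 genes is uncertain.

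Trpc6 encodes the diacylglycerol-gated channel that gives the family its largest difference here. The gene lies at chr9:8544142-8680741 on the plus strand (GRCm38). It had 53 counts in the Ctrl-labelled library and 349 in the OE-labelled library. These were 3.12 and 16.4 CPM, or 59.1 and 313 normalized counts. The log2 fold change was 2.40 (interval 1.99 to 2.85), which is 5.26-fold (3.96 to 7.22). In bulk tissue, a difference in the number of cells that express a gene and a difference in its RNA per cell cannot be told apart. A lincRNA gene, Gm32014, overlaps Trpc6 on the opposite strand and has no row of that name in the counts. Whether the counting used strand is not given in the sources used here.

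The other 5 genes differed far less between the libraries. Trpc1 (chr9:95705082-95750375), the most widely expressed member of its subgroup, had 276 counts in the Ctrl-labelled library and 378 in the OE-labelled library. Its log2 fold change was 0.14 (-0.087 to 0.37). Trpc4 (chr3:54156035-54318471) had 185 and 278 counts, with a log2 fold change of 0.27. The interval of Trpc4 ran from 0.0009 to 0.55 and so only just excluded 0. With total-count scaling it started at -0.014 and with DESeq2 size factors at -0.0001. Trpc5 (chrX:144381671-144688180) had 138 and 159 counts and a log2 fold change of -0.11 (-0.45 to 0.23). Trpc5os overlaps Trpc5 on the opposite strand and likewise has no row of that name in the counts.

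Trpc7 (chr13:56773113-56895993), the closest relative of Trpc6 among these genes, had 71 and 68 counts. Its log2 fold change of -0.37 (-0.88 to 0.12) pointed the other way from that of Trpc6, and the difference was not detectable at this depth. Trpc2 (chr7:102083116-102096396) had 26.2 and 33.2 counts and a log2 fold change of 0.029 (-0.75 to 0.83). Xntrpc, which was looked up after the values of Trpc2 were seen, had 31.1 and 29.3 counts. The intervals of Trpc2 and Trpc7 reach beyond log2 0.5 on the negative side, so a moderate difference in either gene is not separated from counting error.

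**Figure D1:**
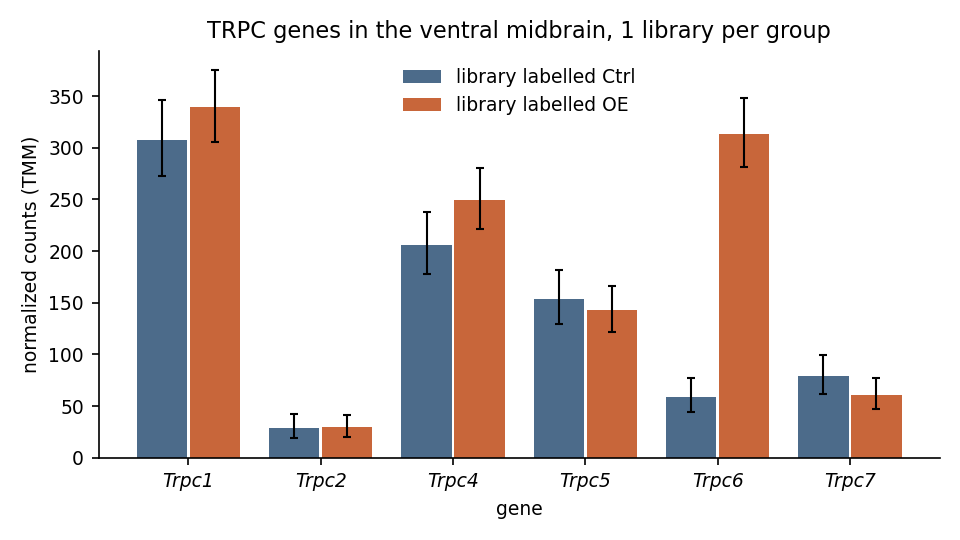
Normalized counts of the 6 TRPC genes (vertical axis, TMM-scaled counts) in the Ctrl-labelled library (blue bars) and the OE-labelled library (orange bars), with exact 95% Poisson intervals of each count as error bars. Trpc6 stands at 59.1 and 313, whereas the paired bars of the other 5 genes have overlapping error bars.

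Levels of different genes were compared per kilobase of the longest annotated transcript. In the Ctrl-labelled library, Trpc1 was highest at 3.56 CPM per kilobase, followed by Trpc4 at 3.14, Trpc5 at 1.95, Trpc7 at 1.19, Trpc6 at 0.957 and Trpc2 at 0.537. Neighbouring levels did not differ beyond counting error between Trpc1 and Trpc4 (ratio 1.14, interval 0.94 to 1.38) or between Trpc7 and Trpc6 (1.24, 0.857 to 1.81). In the OE-labelled library, Trpc6 came first at 5.02 CPM per kilobase, followed by Trpc1 at 3.89, Trpc4 at 3.75, Trpc5 at 1.79, Trpc7 at 0.906 and Trpc2 at 0.542. There, Trpc6 stood above Trpc1 by a ratio of 1.29 (1.11 to 1.5), and Trpc1 and Trpc4 were not separated (1.04, 0.885 to 1.21). The first place of Trpc6 depends on the length used: with the median length of a gene's transcripts, Trpc1 held 31.9% of the family's counts per kilobase in the OE-labelled library and Trpc6 26.6%. Trpc6 therefore went from place 5 of the 6 genes to the level of the most abundant ones.

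As a share of the counts per kilobase of the 6 genes, Trpc6 made up 8.45% in the Ctrl-labelled library and 31.6% in the OE-labelled library. Without division by length, these shares were 7.07% (exact Clopper-Pearson interval 5.35% to 9.15%) and 27.6% (25.1% to 30.1%). Trpc7 went from 10.5% to 5.70% of the counts per kilobase. Summed over the diacylglycerol-gated pair Trpc6 and Trpc7, counts were 124 and 417, a log2 fold change of 1.43 (1.14 to 1.74). The difference of this sum is that of Trpc6 (53 and 349 counts), as Trpc7 had 71 and 68. It is therefore not a result about the pair. Summed over Trpc1, Trpc4 and Trpc5, they were 599 and 815, a log2 fold change of 0.13 (-0.023 to 0.29). Over the 5 genes without Trpc6 the log2 fold change of the sum was 0.083 (-0.061 to 0.23), against 0.44 (0.31 to 0.58) with Trpc6 included.

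**Figure D2:**
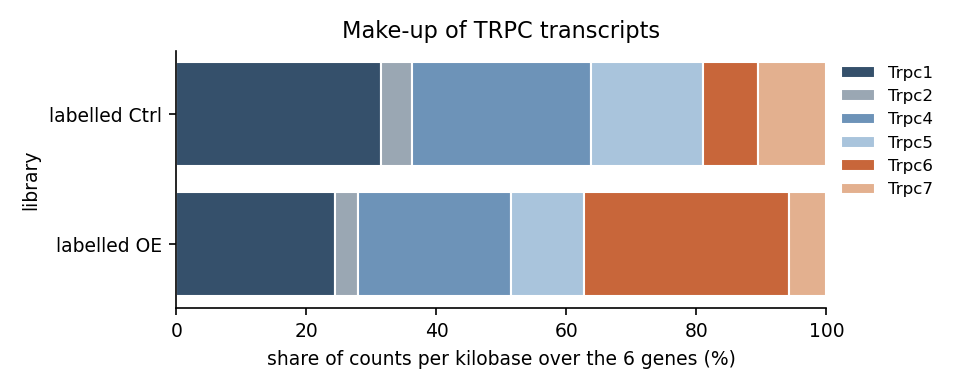
Share of each gene in the summed counts per kilobase of the 6 TRPC genes (horizontal axis, percent) in each library. Trpc6 (dark orange) takes 8.45% in the Ctrl-labelled library and 31.6% in the OE-labelled library, and each other gene takes a smaller share in the OE-labelled library.

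A ratio between 2 genes in the same library needs no scaling. Per 100 counts of Trpc1, there were 19.2 counts of Trpc6 in the Ctrl-labelled library and 92.3 in the OE-labelled library, a 4.81-fold difference in the ratio (3.43 to 6.80). Per 100 counts of Trpc7, there were 74.7 and 513 counts of Trpc6, a 6.88-fold difference (4.32 to 10.9). Relative to Trpc4 and Trpc5, the ratio differed 4.38-fold (3.07 to 6.30) and 5.72-fold (3.90 to 8.42). Trpc6 was higher in the OE-labelled library relative to each of these 4 relatives, under any scaling of the libraries. As the family was picked for the difference of Trpc6, these ratios restate that difference and are not separate evidence for it.

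The promoter window of Trpc6 is shown because COUP-TFII binds DNA at repeats of the sequence AGGTCA and Trpc6 is the gene on which the description turns. The window is chr9:8543892-8544191 on the plus strand (RefSeq, GRCm38.p6), from 250 bases before the annotated start to 50 bases after it, with any match to the searched motifs in capitals.
Trpc6 promoter: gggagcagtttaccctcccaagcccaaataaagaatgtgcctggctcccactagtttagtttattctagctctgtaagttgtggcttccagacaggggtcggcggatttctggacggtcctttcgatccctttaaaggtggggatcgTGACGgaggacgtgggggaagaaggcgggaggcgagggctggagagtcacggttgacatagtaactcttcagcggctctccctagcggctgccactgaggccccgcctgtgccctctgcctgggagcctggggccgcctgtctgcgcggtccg
AGGTCA was found on neither strand of this window, and 16.3% of all 32851 RefSeq promoter windows of the same length hold it. The capitals mark a TGACG, the core of cyclic AMP response elements, which 20.8% of all windows hold on either strand. The GC box GGGCGG and the CCAAT box, which 35.7% and 37.4% of windows hold, had no match in it. Windows were matched for all 6 genes, and AGGTCA was absent from each. The GC box occurred 3 times each in the windows of Trpc1 and Trpc4, and TGACG 2 times in that of Trpc1 and 1 time in that of Trpc2. A match or its absence in 300 bases describes these letters only.

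Over the 15246 genes averaging 10 counts or more, 17.9% were higher in the OE-labelled library by more than log2 0.2, the threshold of the study, and 16.6% were lower by more than that. Past log2 1, the percentages were 1.53% and 1.28%. All 6 TRPC genes were among the 15246. Past log2 0.2, Trpc4 and Trpc6 were higher and Trpc7 was lower, and past log2 1 Trpc6 was higher. Counting intervals lay above 0 for 15.8% of all genes and below 0 for 14.4%, and above 0 for Trpc4 and Trpc6. The median log2 fold change was 0.085 for the 6 genes and 0.0046 for all genes. By log2 fold change, 29 of the 15246 genes lay above Trpc6, and by size in either direction 58 did. Among the 11735 genes averaging 100 counts or more, 1 gene, Xlr3b, had a higher value, and 11 had a larger one in either direction. The 1471 genes with a mean count within 1.3-fold of that of Trpc6 had a median of 0.0048, and 1 of them lay above Trpc6, or 2 by size in either direction. The family was picked for the size of the Trpc6 difference, so these ranks describe that choice and are not evidence of their own.

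**Figure D3:**
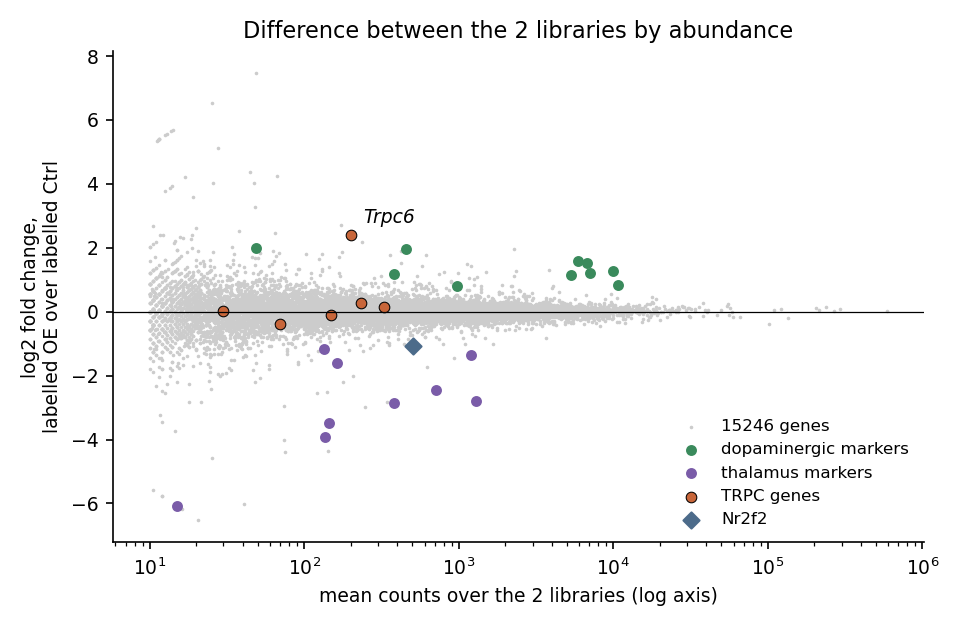
Log2 fold change, OE-labelled over Ctrl-labelled library (vertical axis), against the mean count over the 2 libraries (horizontal log axis) for 15246 genes (grey), with the TRPC genes, Nr2f2, 10 dopaminergic markers and 9 thalamus markers in colour. The point of Trpc6 at 2.40 stands above the points of all 10 dopaminergic markers, and the other 5 TRPC genes lie within the grey band around 0. Counting intervals are not drawn.

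The wider TRP superfamily, which senses heat, chemicals, stretch and lipids in other settings, gives a scale for these values. Of 21 other TRP channel genes, 13 averaged 10 counts or more, and Trpm1, Trpm8, Trpv5 and Mcoln2 were at 0 in both libraries. Of the 13 genes, 3 lay above log2 0.2 and 4 lay below -0.2, or 23.1% and 30.8%, with a median log2 fold change of -0.080. Over all 15246 genes, the shares were 17.9% and 16.6%. The interval lay above 0 for 1 of the 13 genes, Trpv2, which had 332 and 486 counts and a log2 fold change of 0.24 (0.032 to 0.44). It lay below 0 for Pkd2l1, with 224 and 223 counts and a log2 fold change of -0.32 (-0.59 to -0.046). Trpm3 and Trpm2, the latter a channel opened by ADP-ribose, had intervals below 0 at -0.14 each. Over all genes, intervals lay above 0 for 15.8% and below 0 for 14.4%.

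The most abundant of these channels per kilobase were Mcoln1, a lysosomal channel, with 15.2 and 16.5 CPM per kilobase, and Trpm7, a magnesium-permeable channel fused to a kinase, with 9.95 and 9.32. Trpm2 followed with 9.28 and 8.32. Trpc6 was below all 3 in both libraries. The largest point estimates among the 13 genes were those of Trpv1 (1.0) and Trpa1 (-1.01), which rested on 7 and 18 counts and on 15 and 9 counts and had intervals that held 0.

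**Figure D4:**
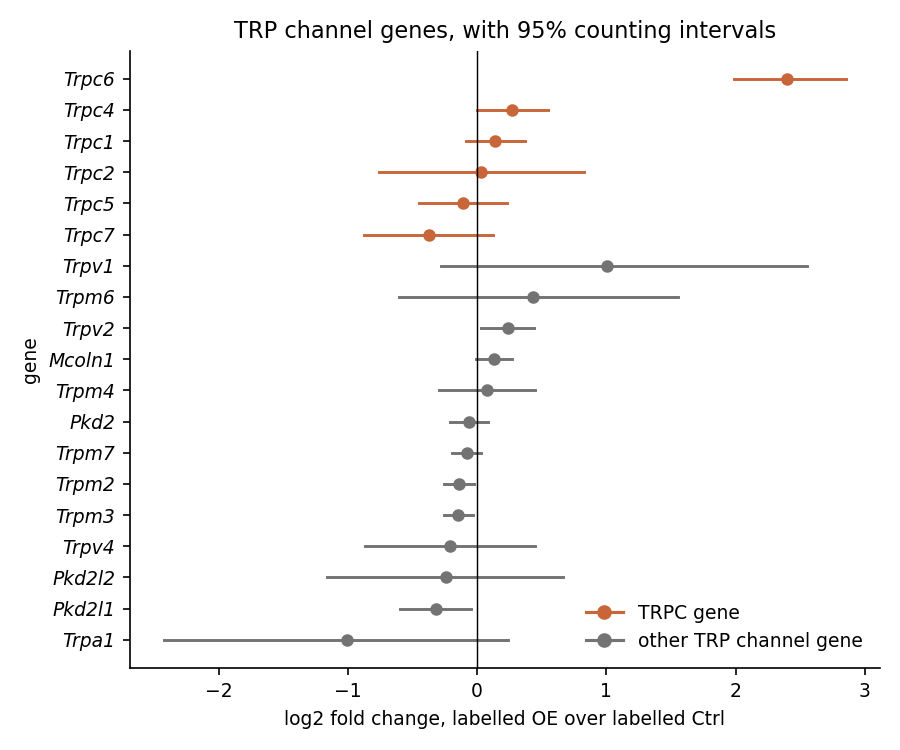
Log2 fold change, OE-labelled over Ctrl-labelled library (horizontal axis), of the 6 TRPC genes (orange) and of 13 other TRP channel genes (grey), as points with 95% counting intervals as lines. The interval of Trpc6, 1.99 to 2.85, stands to the right of those of the other 5 TRPC genes, and the widest grey line is that of Trpv1, from -0.28 to 2.55.

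Genes that act with TRPC channels were followed through a list of 74 genes, from receptors to calcium-dependent effectors, of which 72 averaged 10 counts or more. Of the 72 genes, 9 were higher in the OE-labelled library by more than log2 0.2 and 16 were lower, or 12.5% and 22.2%. Over all 15246 genes, the shares were 17.9% and 16.6%. The median log2 fold change of the list was -0.015, and none of its genes reached the value of Trpc6. Intervals lay above 0 for 18.1% of the list and below 0 for 26.4%, beside 15.8% and 14.4% of all genes.

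Among 17 receptors that act upstream of phospholipase C, 2 stood out on the higher side. Tacr3, the receptor of neurokinin B, had 407 counts in the Ctrl-labelled library and 1193 in the OE-labelled library, a log2 fold change of 1.24 (1.07 to 1.4). Ntsr1, a neurotensin receptor, had 510 and 1461 counts, with a log2 fold change of 1.20 (1.06 to 1.35). These were the only genes of the list past log2 1. The median log2 fold change was -0.014 over the 17 receptors, and 1.24 over the 10 markers of DA neurons described below. Whether the differences of Tacr3 and Ntsr1 are linked to those of the DA markers or of Trpc6 was not tested. Hcrtr1, an orexin receptor, had 212 and 320 counts and a log2 fold change of 0.28 (0.026 to 0.54). On the lower side, P2ry1, a receptor of ADP, had a log2 fold change of -0.48 (-0.73 to -0.23), Chrm1, a muscarinic receptor, -0.42 (-0.80 to -0.045) and the metabotropic glutamate receptor gene Grm5 -0.30 (-0.39 to -0.21).

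Inside the cell, Gnaq, whose protein couples these receptors to phospholipase C, had a log2 fold change of 0.12 (0.050 to 0.18), and Plcb1 of 0.19 (0.097 to 0.29). The 6 phospholipase genes had a median of -0.00050 and a range from -0.25 to 0.19. The 3 genes of IP3 receptors, which release calcium from stores, lay between -0.21 and -0.018. Dgka, a kinase that removes diacylglycerol, had 294 and 452 counts and a log2 fold change of 0.31 (0.092 to 0.52). The 11 genes of diacylglycerol kinases and lipases had a median of -0.0014. Store-operated calcium entry was represented by 5 genes with a median of -0.074, and its calcium sensor Stim1 had a log2 fold change of -0.23 (-0.34 to -0.12).

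The 14 tested channel partners had a median log2 fold change of -0.048. Calm2 and Calm3, which encode the calcium sensor calmodulin, were among the most abundant genes of the list, with 657 and 346 CPM per kilobase in the Ctrl-labelled library and 613 and 356 in the OE-labelled library. The log2 fold changes of Calm2 and Calm3 were -0.085 and 0.057. Among 13 calcium-dependent effectors, the median was -0.11, and 4 genes were lower by more than log2 0.2, or 30.8%, beside 16.6% of all genes. Of the 4 effectors, the calcineurin subunit genes Ppp3r1 (-0.27, -0.31 to -0.22) and Ppp3ca (-0.26, -0.32 to -0.19) had intervals below 0. The transcription factor genes Nfatc1 (-0.31) and Nfatc4 (-0.24) had intervals that held 0. Capn1, which encodes a calpain protease, was the 1 effector gene higher by more than log2 0.2, at 0.26 (0.030 to 0.50).

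Markers of cells and regions also differed between the 2 libraries, and their part in the difference of Trpc6 was not tested. All 10 markers of DA neurons were higher in the OE-labelled library, with log2 fold changes from 0.79 to 2.00 and a median of 1.24. Their summed level was 1444 CPM in the Ctrl-labelled library and 3316 in the OE-labelled library, and none of the 10 was at 0. Th, the rate-limiting enzyme of dopamine synthesis, had 2499 and 9354 counts, and the dopamine transporter Slc6a3 4955 and 15033. The point estimate of Trpc6 was larger than that of each of the 10. The interval of Trpc6, 1.99 to 2.85, overlapped those of Pitx3 (2.00, 1.24 to 2.90) and En1 (1.96, 1.72 to 2.23). Pitx3 had 16 counts in the Ctrl-labelled library and 81 in the OE-labelled library, and En1 156 and 758. Ratios of Trpc6 to Pitx3 and En1 were not computed. The ratios that follow are to markers with smaller log2 fold changes, so they do not cover the markers closest to Trpc6. Per 100 counts of Th, there were 2.12 counts of Trpc6 in the Ctrl-labelled library and 3.73 in the OE-labelled library, a 1.76-fold difference in the ratio (1.31 to 2.40). Per 100 counts of Slc6a3 the ratio differed 2.17-fold (1.62 to 2.96), and per 100 counts of Aldh1a1 2.98-fold (2.22 to 4.06). The family was picked for the difference of Trpc6, so these ratios too are a description and not separate evidence for it.

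All 9 thalamus markers were lower in the OE-labelled library by more than log2 1, with a median of -2.78 and a summed level of 386 CPM in the Ctrl-labelled library and 83.9 in the OE-labelled library. Tcf7l2 had 2204 and 398 counts, Prkcd 1156 and 262, and Gbx2 was at 0 in the OE-labelled library. The 7 markers of mural cells, the contractile cells of blood vessel walls, had log2 fold changes from -0.97 to -0.15 and a median of -0.31, with Acta2, the smooth muscle actin, at 435 and 276 counts and Rgs5 at 734 and 820. Their summed level was 164 CPM in the Ctrl-labelled library and 123 in the OE-labelled library, and none was at 0. The 5 markers of meningeal fibroblasts had a median of -0.66, with Col1a1 at -0.94 (-1.37 to -0.52) and Dcn at -0.18 (-0.40 to 0.037).

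The 5 markers of GABA neurons had a median of 0.093 and went both ways. Their intervals lay above 0 for 2 genes and below 0 for 2, Gad1 (-0.11) and Gad2 (-0.065). Pan-neuronal markers had a median of 0.055, with intervals above 0 for 3 genes, Snap25 (0.055) among them, and below 0 for 1, Rbfox3 (-0.21). Medians were -0.077 for oligodendrocyte precursors (Pdgfra, Cspg4), -0.096 for astrocytes (Aldh1l1, Gfap) and -0.13 for endothelium (Cldn5, Pecam1). Oligodendrocytes (Mbp first among 6) had a median of -0.32 and microglia (Cx3cr1, P2ry12) of -0.35. Of the glutamate markers, Slc17a6 had a log2 fold change of -0.23 and Slc17a7 of -2.51. Hypothalamic markers had a median of -0.26 over 5 tested genes and went both ways, with Foxb1 at 0.15 and Sim1 at 0.58. The hormone genes Avp and Oxt of that list had 80.6 and 48.4 counts in the Ctrl-labelled library and 1 and 2 in the OE-labelled library, log2 fold changes of -6.02 (-11.97 to -4.13) and -4.57 (-7.98 to -2.97). Markers of choroid plexus had a median of -0.93 over 3 genes and went both ways, with Ttr at -2.97, Kl at -0.93 and Clic6 at 0.22 (-0.26 to 0.72). Those of ependyma (Foxj1 0.063) had a median of 0.063 over 3. Ccdc153 of the ependyma list was at 0 in the OE-labelled library and had 21 counts in the Ctrl-labelled library.

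**Figure D5:**
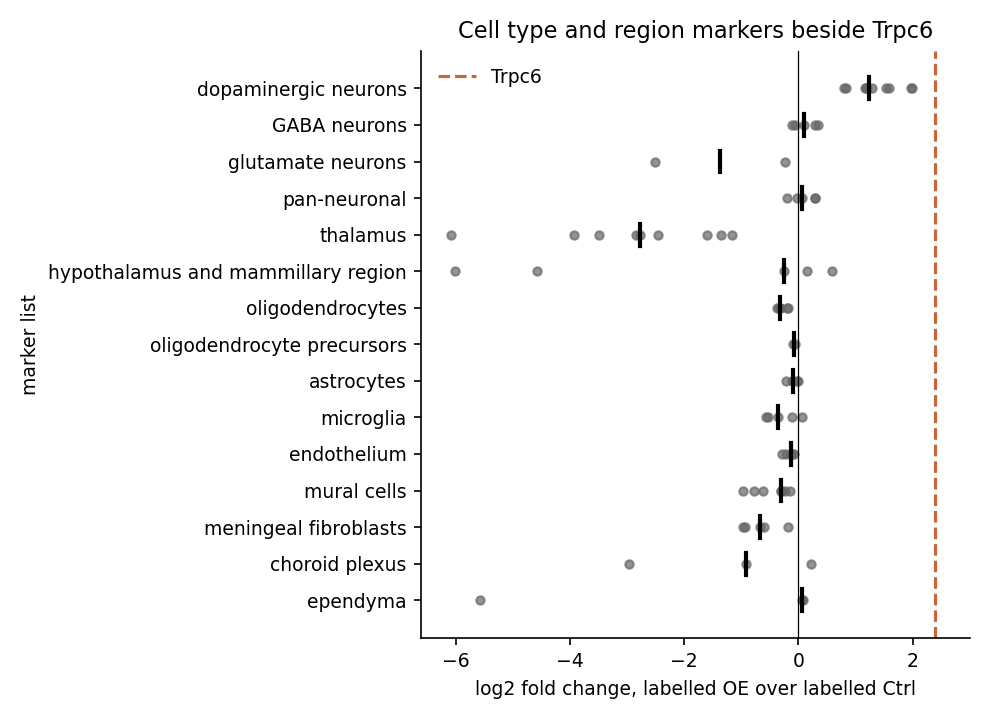
Log2 fold change, OE-labelled over Ctrl-labelled library (horizontal axis), of the tested markers of 15 cell types and regions, with a point per gene, a black bar at each list's median and a dashed line at Trpc6 (2.40). The 10 dopaminergic markers reach up to 2.00, the 7 mural cell markers lie below 0, and Gbx2 and Ccdc153, which were at 0 in the OE-labelled library, are drawn at values that depend on the pseudocount.

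The genes closest to Trpc6 in log2 normalized count over the 2 libraries were Chrna5, En2, Aldh1a7, Xlr3b and Cnpy1, at distances from 0.37 to 0.74. With 2 libraries this likeness says only that these genes had similar levels in both. Chrna5, a nicotinic acetylcholine receptor subunit, had 63 counts in the Ctrl-labelled library and 290 in the OE-labelled library, a log2 fold change of 1.88 (1.49 to 2.31). En2, a homeobox gene of the midbrain and hindbrain, had 71 and 405 counts and a log2 fold change of 2.19 (1.83 to 2.58). Cnpy1 had 48 and 211 counts. Aldh1a7 and Xlr3b have close copies in the genome and fractional counts, so their values are less certain.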

How the data were processed

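RNA of the ventral midbrain was read as paired 50-base reads from stranded libraries of polyadenylated RNA. The authors deposited RSEM expected counts, the estimated reads per gene made by the company's pipeline, unscaled, for 31252 gene rows; the submitters' processing notes name mm10, and the aligner, versions and annotation are not given in the sources used here. Of the values, 95.4% were whole. Columns were tied to samples by the number in each title. Totals were 16984336 counts (labelled Ctrl) and 21326632 (labelled OE).

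Counts were scaled with TMM factors of 1.01 and 0.995 (edgeR 4.0.16, R 4.3.3). Before taking log2 fold changes, 0.5 normalized counts was added as a pseudocount. Single genes got exact 95% Clopper-Pearson intervals around the division of their rounded counts (scipy 1.17.1), and intervals cover counting error only, as reads are not independent molecules. No fold was given where both libraries were at or under 3 counts. Statements over many genes used the 15246 genes averaging 10 counts or more. No model across genes was fitted, and the interval code was tested on simulated data.

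The members and lists were chosen with earlier results of these data known, and the lists came from general knowledge. One further gene of the family and some genes that meet the naming rule below are not reported here. Family shares and sums cover the 6 genes only, and list counts and medians cover whole lists. Named by rule were the 6 genes, Nr2f2, in each list up to 4 genes per direction with intervals beyond 0 and the 3 highest per kilobase, the first 2 genes of each marker list, and the 5 genes nearest to Trpc6. Xntrpc, Gnaq, Plcb1, Stim1, Trpv1, Trpa1, Gbx2, Ccdc153, Clic6, Slc17a7, Ppp3ca, Nfatc1, Nfatc4, Capn1, Avp, Oxt and the DA markers Aldh1a1, Pitx3 and En1 were named after their values were seen. Lengths and loci came from GENCODE M21 (GRCm38), and promoters from RefSeq. Other scalings (total counts, upper quartile, DESeq2 1.42.0 size factors), a pseudocount of 5, other count minimums and other lengths were tried.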

Additional observations from a re-analysis of the deposited data

How the results depend on the processing

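No paired analysis was possible because the series holds a single library of each genotype, and no replicate could be left out. Trpc6 ranged from 2.31 to 2.41 over its 4 alternatives and Nr2f2 from -1.08 to -1.06. Trpc1 (0.13 to 0.15), Trpc2 (0.014 to 0.043), Trpc4 (0.26 to 0.29), Trpc5 (-0.12 to -0.095) and Trpc7 (-0.39 to -0.35) kept the sign of their point estimates. So did the sums over Trpc6 and Trpc7 (1.42 to 1.45) and over Trpc1, Trpc4 and Trpc5 (0.12 to 0.14). Another scaling shifts every gene by nearly the same small amount, so a kept sign says little. The intervals of Trpc1, Trpc2, Trpc5 and Trpc7 held 0 in every alternative, so no direction was established for them. The share of Trpc6 in the OE-labelled library, 31.6%, became 27.6% without division by length and 26.6% with median transcript lengths.

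Counts of genes moved with filters, which set how many genes can enter. From 2723 higher and 2536 lower past log2 0.2, every gene with a count gave 4513 and 4497, a mean of at least 100 counts 1522 and 1377, and an interval that excludes 0 gave 1509 and 1396. Past log2 1, 233 higher and 195 lower became 1378 and 1294 with every gene and 44 and 30 with at least 100 counts, and 124 were lower with a pseudocount of 5. Of the other TRP channels, 7 were lower past log2 0.2 with every gene, and 1 higher and 1 lower with at least 100 counts. The choroid plexus median was -2.97 with at least 100 counts, where Ttr alone was left. At 26.2 to 378 counts per gene and library, depth limits the 5 genes other than Trpc6.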
